A study of Homo sapiens with 6 samples.

Results

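KLK6 and its neighbours KLK4, KLK5, KLK7, KLK8, KLK9, KLK10 and KLK11 are members of the human kallikrein cluster, a tandem array of protease genes that spans 265.1 kb of chromosome 19 (chr19:50819148-51084245, GRCh38). These 8 genes, of the 56982 gene identifiers held in both deposited tables, were matched from symbol to Ensembl identifier with GENCODE 29, and all 8 were found. The set was chosen by the measured values: KLK6 was selected on its lower level in the edited clone, and the other 7 members because they lie around it. The difference of KLK6 between the genotypes is therefore a description, with no test, and the question followed here is whether the neighbours shared it, library by library.

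The libraries came from U2OS, an established human osteosarcoma cell line. The edited cells are the clone G3C2, labelled ZFP36L1 deficient after CRISPR/Cas9 targeting, and the comparison cells are U2OS labelled WT. Both were log-phase cultures at 65 to 75% confluency in DMEM with foetal bovine serum, and poly(A) RNA of 3 libraries per genotype, labelled 1, b and c, was sequenced. ZFP36L1 binds AU-rich elements in the 3′ untranslated regions of mRNAs and promotes the decay of those mRNAs. All deficient libraries came from 1 clone, so genotype and clone cannot be told apart, and p-values reflect only how far these libraries differ, some of which may be technical.

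Gene levels were deposited as FPKM, fragments scaled to gene length and sequencing depth. The libraries of replicate 1 stood in a first table, and those of replicates b and c shared a second, scaled separately. Levels were therefore compared within a replicate label, which keeps G3C2 and WT in the same table. Within the second table, matching b with b and c with c follows the labels alone. Same-labelled libraries there did not deviate together from their group means (r = -0.17). Reads recovered from the steps between low values came to between 22580778 and 26099858 per G3C2 library and between 18918775 and 28977502 per WT library. ZFP36L1 itself had 238.1, 105.1 and 82.4 FPKM in G3C2 replicates 1, b and c, against 165.2, 57.1 and 127.5 FPKM in WT (log2 difference 0.26, SE 0.33, limma adjusted p = 0.752), so its mRNA level does not check the edit. Of 10 osteoblast markers 5 passed the filter on low values. The summed level of all 10 was 1873, 555.3 and 394.95 FPKM in G3C2 replicates 1, b and c, against 964.8, 357.6 and 485.7 FPKM in WT. It was higher in G3C2 in replicates 1 and b and lower in c, and was carried by COL1A1 and SPARC. Of the 5, 2 were higher in G3C2 in all 3 replicates and 0 lower. Below the filter, ALPL and BGLAP were lower in all 3 replicates and COL1A2 was higher. IBSP was at 0 in all 6 libraries.

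Kallikreins are secreted serine proteases that are made as inactive precursors and switched on when a short propeptide is removed, often by another kallikrein. In skin, KLK5 and KLK7 cut the adhesion proteins that hold the outermost keratinocytes together, under the control of the inhibitor encoded by SPINK5. KLK6, also called neurosin, is a trypsin-like member that is abundant in the central nervous system, can cleave protease-activated receptors and matrix proteins, and is raised in several carcinomas.

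KLK6 was the most abundant kallikrein of the WT cells, and it was far lower in the clone. KLK6 (ENSG00000167755, chr19:50958631-50969673, minus strand) had 0.257, 0.821 and 0.651 FPKM in G3C2 replicates 1, b and c, against 14.96, 20.2 and 29.9 FPKM in WT. Every G3C2 library lay below every WT library. Among 19657 protein-coding genes KLK6 stood at percentiles 32.3, 43.1 and 43.2 in G3C2, against 65.0, 87.7 and 93.5 in WT, so it lay in the middle or lower part of the range in the clone and in the upper part in WT.

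The same values were read as reads. KLK6 had about 7, 43 and 29 reads in G3C2, against about 346, 1183 and 1501 reads in WT. In the first table the KLK6 values were not whole with the GENCODE 29 length (7.08 reads in G3C2 and 345.7 in WT), so the replicate 1 reads are approximate. As ratios of reads scaled by the FPKM divisors, KLK6 was 59.0-fold lower in G3C2 for replicate 1 (95% interval 28.3 to 148), 24.6-fold lower for replicate b (18.1 to 34.2) and 46.0-fold lower for replicate c (31.9 to 68.9). These exact intervals cover counting error only.

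The drop in KLK6 varied among the 3 pairs less than its size. On the log2(FPKM + 1) scale the G3C2 minus WT differences were -3.67, -3.54 and -4.23 for replicates 1, b and c (SD 0.37), and the fitted difference was -3.81 (SE 0.18, n = 3 per genotype). This scale understates the change of genes near 0: with a pseudocount of 0.1 in place of 1 the difference was -5.06. Ranked from the lowest among 15001 tested genes, the KLK6 difference was number 3 for replicate 1, number 1 for replicate b and number 3 for replicate c. Within the second table the level of KLK6 differed 1.26-fold between the G3C2 libraries and 1.48-fold between the WT libraries.

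KLK6 was the only member to pass the filter on low values, which asked for 1 FPKM or more in 2 or more libraries, and it passed through WT alone. It counted among the 4 genes lower in G3C2 at a limma adjusted p under 0.05, which were 0.0267% of the 15001 tested (0.0467% in either direction). The choice of KLK6 used this contrast, so nothing is read from that count. In these bulk libraries, fewer cells that make KLK6 and less KLK6 RNA per cell cannot be told apart.

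**Figure D1:**
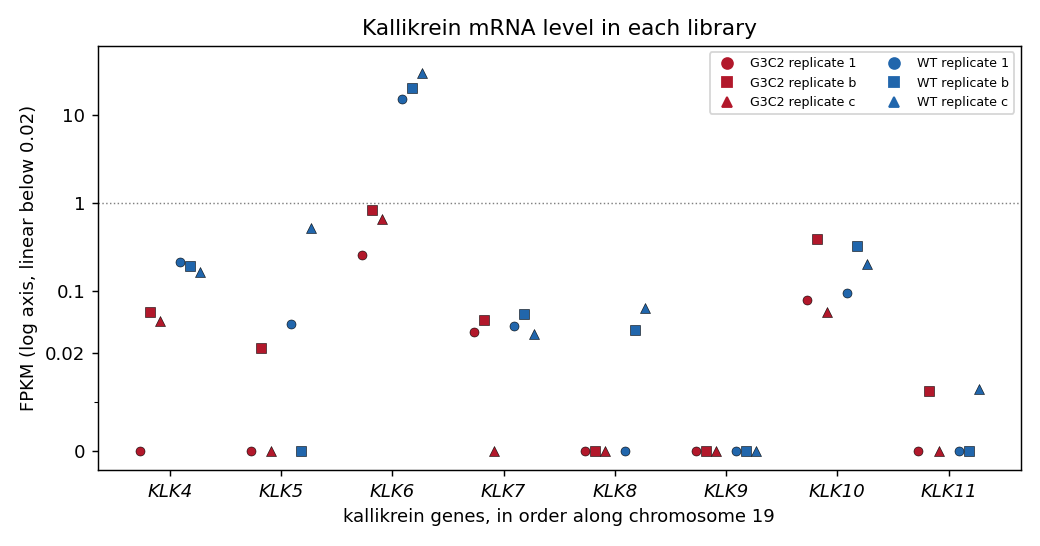
FPKM of the 8 members in each library, in order along chromosome 19, on a vertical axis that is logarithmic above 0.02 and linear below it; red points are G3C2 and blue points WT, the shape gives the replicate label, and the dotted line marks the filter at 1 FPKM. KLK6 alone exceeds 1 FPKM, in the 3 WT libraries (14.96 to 29.9 FPKM), while the 3 G3C2 libraries lie between 0.257 and 0.821 FPKM.

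The other 7 members were close to silent in both genotypes. Their highest level in any library was 0.392 FPKM in G3C2 and 0.524 FPKM in WT, and none passed the filter. Added up, the 7 had 4, 48 and 7 reads in G3C2 replicates 1, b and c, against 8, 54 and 56 reads in WT. Scaled to depth (RPM) that was 0.179, 1.81 and 0.310 in G3C2, against 0.427, 1.82 and 2.20 in WT. KLK10 alone held 40 of the 48 reads of G3C2 replicate b. Without KLK10, the other 6 had 0.0447, 0.302 and 0.0887 RPM in G3C2, against 0.267, 0.573 and 1.42 RPM in WT, from 1, 8 and 2 reads in G3C2 and 5, 17 and 36 reads in WT. The sum of the 6 was lower in G3C2 in each pair, on few reads, and KLK10 was left out after its values were seen. The 95% Poisson intervals of these reads overlapped between the genotypes for replicates 1 and b. In WT replicate c, KLK5 held 22 of the 36 reads. KLK6 made up 63.6%, 47.3% and 80.6% of the reads of the 8 members in G3C2, against 97.7%, 95.6% and 96.4% in WT.

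The start of KLK5 lies 16.6 kb from that of KLK6 and the start of KLK7 14.4 kb on the other side. KLK5, the trypsin-like protease that can activate KLK7 in skin, had 0, 0.0228 and 0 FPKM in G3C2, against 0.0424, 0 and 0.524 FPKM in WT. Those values stand for 0, 1 and 0 reads in G3C2, against 1, 0 and 22 reads in WT. KLK5 therefore differed in replicate c alone, where it was at least 6.51-fold lower in G3C2 with the 0 set at a floor of 3 reads per library. With the counting error of the WT reads included, the exact 95% lower limit was 4.86-fold. The groups overlapped.

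KLK7, the chymotrypsin-like protease of the same skin cascade, had 0.0340, 0.0465 and 0 FPKM in G3C2, against 0.0406, 0.0554 and 0.0323 FPKM in WT. Its reads were 1, 3 and 0 in G3C2, against 1, 4 and 2 in WT, so its lower FPKM in all 3 pairs rests on counts at or near the floor. No difference in KLK7 was detectable at this depth.

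KLK4, the protease of enamel maturation whose start lies 58.9 kb from that of KLK6, was lower in G3C2 in each pair, on few reads. KLK4 had 0, 0.0585 and 0.0458 FPKM in G3C2, against 0.212, 0.192 and 0.163 FPKM in WT. The reads were 0, 3 and 2 in G3C2, against 3, 11 and 8 in WT, and in each pair the 95% interval of the ratio included 1 (0.866-fold to 18.3-fold lower in G3C2 for replicate b). On the log2(FPKM + 1) scale the differences were -0.28, -0.17 and -0.15.

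KLK10, described in epithelial cells and lost in some breast tumours, was the most abundant neighbour in reads. It had 0.0793, 0.392 and 0.0575 FPKM in G3C2, against 0.0946, 0.324 and 0.204 FPKM in WT. The reads were 3, 40 and 5 in G3C2, against 3, 37 and 20 in WT. The highest KLK10 value was in G3C2 replicate b, and the groups overlapped. For replicate b the ratio of G3C2 to WT was 1.21 (95% interval 0.754 to 1.95), and for replicate c KLK10 was 3.55-fold lower in G3C2 (1.29 to 12.1). KLK6, as given above, was 24.6-fold and 46.0-fold lower in the same pairs.

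The remaining 3 neighbours gave a handful of reads or none. KLK8, a trypsin-like protease called neuropsin that acts on synapses in the mouse hippocampus, had 0 reads in each G3C2 library, against 0, 2 and 3 reads in WT. KLK11 had 0, 1 and 0 reads in G3C2, against 0, 0 and 1 reads in WT. KLK9 was at 0 in all 6 libraries. The exons of KLK8 and KLK9 are shared in part with AC011473.4, an annotated gene on the same strand that covers 40.1% of KLK8 and 93.7% of KLK9 exon bases, so reads there could have been set aside or split by the counting.

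Taken by direction, 2 of the 7 neighbours (KLK4 and KLK7) were lower in G3C2 in all 3 pairs and 0 were higher in all 3. With b and c matched the other way KLK7 would not count. Its G3C2 replicate b value (0.0465 FPKM) lay above that of WT replicate c (0.0323 FPKM). Among the 15001 tested genes, which passed the filter as these neighbours did not, 18.6% were lower in all 3 pairs and 17.8% were higher in all 3. With at most 4 reads in any library, KLK7, KLK8, KLK9 and KLK11 could not have shown a difference of the KLK6 size at this depth.

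**Figure D2:**
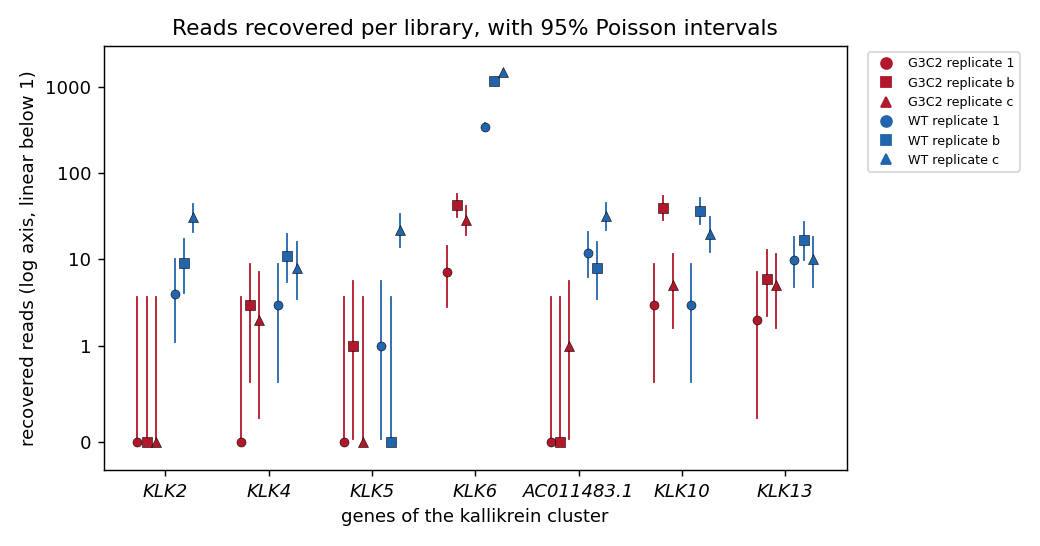
Reads recovered per library for KLK6, for neighbours and other kallikreins with more than a few reads and for the antisense gene AC011483.1, on a vertical axis that is logarithmic above 1 and linear below it; red points are G3C2, blue points WT, the shape gives the replicate label, and the bars are exact 95% Poisson intervals. KLK6 has about 7 to 43 reads in G3C2 and about 346 to 1501 in WT, while the KLK10 and KLK5 groups overlap.

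The other kallikreins of the cluster were also sparse. None of the 8 (KLK1, KLK2, KLK3, KLK12, KLK13, KLK14, KLK15 and the pseudogene KLKP1) passed the filter. Their summed reads were 1.12, 0.679 and 1.55 RPM in G3C2, against 1.71, 2.16 and 2.91 RPM in WT, lower in G3C2 in each pair. KLK2, a protease of prostate fluid, had 0 reads in each G3C2 library, against 4, 9 and 31 reads in WT. With the same floor KLK2 was at least 1.59-fold, 2.68-fold and 9.18-fold lower in G3C2 for replicates 1, b and c, and the exact 95% lower limits were 0.788-fold, 1.76-fold and 7.03-fold, so the replicate 1 interval included 1. KLK13 had 2, 6 and 5 reads in G3C2, against 10, 17 and 10 reads in WT. KLK2 and KLK13 were each lower in G3C2 in all 3 pairs, as were 18.6% of all tested genes, which passed the filter as these did not. The KLK13 interval included 1 for replicates b (0.953-fold to 7.84-fold lower) and c (0.553-fold to 6.62-fold lower). For replicate 1 it did not (1.27-fold to 56.0-fold lower).

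KLK1, the tissue kallikrein that releases kinins, had 23, 8 and 18 reads in G3C2, against 15, 36 and 23 reads in WT, with overlapping groups. KLK14 had about 0, 2 and 2 reads in G3C2, against about 3, 1 and 9 reads in WT. KLK15 was above 0 in G3C2 replicate c alone, with 3 reads, and KLKP1 had 0, 2 and 7 reads in G3C2, against 0, 1 and 1 reads in WT. KLK3 and KLK12 were at 0 in all 6 libraries. Of the 16 kallikreins of the cluster, 5 were lower in G3C2 in all 3 pairs and 0 were higher in all 3, against 18.6% and 17.8% of the tested genes. The 5 were KLK6, which was selected for it, and KLK4, KLK7, KLK2 and KLK13, which rest on few reads. KLK7 would drop out with b and c matched the other way.

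An antisense gene that starts inside KLK6 was picked out after its values were seen. AC011483.1 (ENSG00000267879, chr19:50968210-51012129, plus strand) begins 1.46 kb inside the KLK6 gene, runs on past KLK7, KLK8 and KLK9, and shares 0 exon bases with KLK6. It had 0, 0 and 0.0827 FPKM in G3C2, against 1.20, 0.503 and 2.35 FPKM in WT, which stand for 0, 0 and 1 reads in G3C2 and 12, 8 and 32 reads in WT. It was lower in G3C2 in all 3 pairs, as were 18.6% of all tested genes. The exact 95% lower limits were 3.32-fold, 1.53-fold and 4.75-fold lower for replicates 1, b and c, so no interval included 1. These limits cover counting error only. Like KLK6 it passed the filter only through WT, so its log2 difference of -1.12 (SE 0.30, limma adjusted p = 0.213) is given as a value.

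A second antisense gene, AC011483.2, covers 20.3% of KLK6 exon bases and had 1 read in all, in WT replicate b. AC011483.3, annotated within a KLK6 intron on the same strand, had 0 reads in each G3C2 library, against 0, 3 and 3 reads in WT. The strand setting of the counting is not given in the sources used here, so reads of KLK6 and of these overlapping genes cannot be told apart with certainty. The most that AC011483.1 and AC011483.3 held in a library was 32 and 3 reads, against up to 1501 for KLK6.

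Sequence around the gene starts is shown for KLK6 and the neighbours on either side, KLK5 and KLK7, because KLK6 was well expressed in WT and these were not. The windows are from RefSeq (GRCh38.p14) and run from 250 bases before to 50 bases after a start, 5′ to 3′ on the minus strand, at chr19:50969542-50969841 for KLK6, chr19:50952989-50953288 for KLK5 and chr19:50983868-50984167 for KLK7. Capitals mark GGGCGG, the core of the GC box bound by Sp1-like factors, on either strand (CCGCCC where it lies on the other).
KLK6 promoter: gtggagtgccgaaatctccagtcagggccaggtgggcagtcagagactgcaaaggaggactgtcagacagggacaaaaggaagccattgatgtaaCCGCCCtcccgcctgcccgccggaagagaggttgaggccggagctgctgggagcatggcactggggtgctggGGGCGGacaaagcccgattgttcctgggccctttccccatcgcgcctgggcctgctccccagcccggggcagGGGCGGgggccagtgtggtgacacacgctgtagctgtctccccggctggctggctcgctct
KLK5 promoter: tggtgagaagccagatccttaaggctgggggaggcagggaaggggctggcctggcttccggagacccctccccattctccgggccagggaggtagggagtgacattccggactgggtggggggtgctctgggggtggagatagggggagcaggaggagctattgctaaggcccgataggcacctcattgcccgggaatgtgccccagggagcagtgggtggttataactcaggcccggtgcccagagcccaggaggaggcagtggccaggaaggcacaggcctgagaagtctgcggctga
KLK7 promoter: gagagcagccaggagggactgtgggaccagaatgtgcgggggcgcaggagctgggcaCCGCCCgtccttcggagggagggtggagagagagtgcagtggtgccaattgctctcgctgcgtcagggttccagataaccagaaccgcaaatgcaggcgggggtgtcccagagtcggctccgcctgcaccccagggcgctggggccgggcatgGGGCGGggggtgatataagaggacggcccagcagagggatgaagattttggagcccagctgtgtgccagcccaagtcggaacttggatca
The KLK6 window held 3 matches to GGGCGG, the KLK5 window 0 and this KLK7 window 2.

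GGGCGG was present in 45.0% of 35116 RefSeq windows of the same length. RefSeq windows were at hand for 7 of the 8 members, 12 windows in all, and KLK8 is named only. KLK11, which gave at most 1 read in a library, had a window with 3 matches and another with 0. A relation between matches and level was not tested. CG dinucleotides numbered 15 in the KLK6 window, 7 in the KLK5 window and 16 in the printed KLK7 window, against a median of 14 in all windows. The bases were 66.3% G or C in the KLK6 window, against a median of 58.7%. TATAAA (on either strand, in 11.5% of all windows) and TGANTCA, the AP-1 core (in 7.71%), had 0 matches in the 12 member windows.

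The 3′ untranslated regions were searched for ATTTA, the core of the AU-rich elements that ZFP36L1 binds, on the transcript strand. Of 7 members with an annotated region, 4 held ATTTA, against 67.6% of 19120 genes. KLK6 held 1 in a region of 533 bases, KLK5 had 1, KLK7 had 4 and KLK10 had 2. The longer element TATTTAT, found in 31.1% of genes, overlaps ATTTA and was present in KLK7 alone among the members. Both sites are printed in lower case, 5′ to 3′, with ATTTA in capitals, from GENCODE 29 coordinates on the minus strand, at chr19:50958695-50958723 for KLK6 and chr19:50977123-50977151 for KLK7.
KLK6 site: gctgttggaaagATTTAaggtttcacacc
KLK7 site: taccatgatattATTTAtcacagaaatga
KLK6, the member with the large difference, thus has a single ATTTA, and KLK7, with the most sites, gave at most 4 reads in a library. A match is letters in a region and not a bound site.

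The genes flanking the kallikrein cluster were tested as a further view of the neighbourhood. Within 1 Mb of the cluster 44 genes passed the filter, and 0 of them passed a limma adjusted p of 0.05 (the smallest was 0.167). At an unadjusted p under 0.05 there were 6, or 13.6% of them, against 13.6% of all tested genes, and limma-voom on the recovered reads of both tables also called 0 after adjustment and 4 before it. The median log2 difference of the 44 was -0.02, against 0.01 over all 15001. By pair the medians were -0.23, -0.10 and 0.08 for replicates 1, b and c, against -0.08, -0.01 and 0.07 over all genes. In all 3 pairs 11 of the 44 (25.0%) were lower in G3C2, against 18.6% of all tested genes, and 5 (11.4%) were higher, against 17.8%.

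The nearest tested protein-coding genes on either side showed no shift of the size seen in KLK6. C19orf48, 14.2 kb beyond the KLK1 end of the cluster, had 83.6, 36.9 and 90.1 FPKM in G3C2, against 96.1, 43.7 and 22.9 FPKM in WT (log2 difference 0.50, SE 0.44, limma adjusted p = 0.642). CTU1, which modifies transfer RNAs and lies 13.4 kb beyond the KLK14 end, had 3.47, 8.48 and 16.9 FPKM in G3C2, against 5.48, 11.1 and 8.98 FPKM in WT (log2 difference -0.01, SE 0.30). Both were lower in G3C2 in replicates 1 and b and higher in replicate c.

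The flanking differences farthest below 0 were those of IGLON5, a neuronal adhesion protein (-0.73, SE 0.48), and MYH14, a nonmuscle myosin heavy chain (-0.63, SE 0.14). Those farthest above 0 were ATF5, a stress-response transcription factor (0.69, SE 0.42), and SNORD88A, a small nucleolar RNA within C19orf48 (0.65, SE 0.36). None of the 4 passed the limma adjusted threshold.

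**Figure D3:**
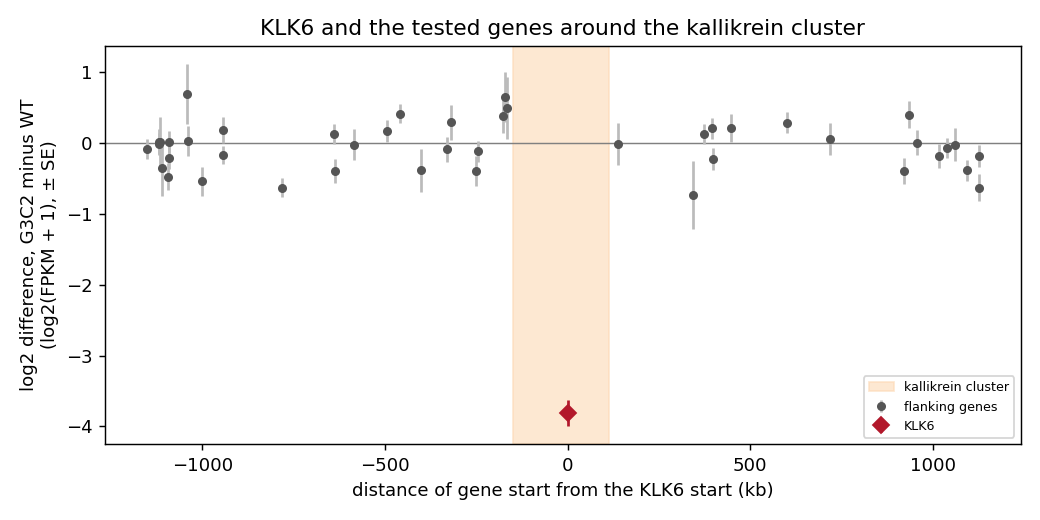
Log2 difference, G3C2 minus WT, on the log2(FPKM + 1) scale with its SE (vertical axis) against the distance of each gene's start from the KLK6 start in kb (horizontal axis), for KLK6 (red) and the 44 tested flanking genes (grey); the shaded band is the kallikrein cluster. The flanking genes lie between -0.73 and 0.69, and KLK6 lies at -3.81. AC011483.1, the other tested gene inside the cluster (-1.12, SE 0.30), is not plotted.

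Partners of the kallikreins were taken as lists from the pathway. Among inhibitors 4 of 13 passed the filter, with 0 called by limma in either direction, 1 (25.0%) at an unadjusted p under 0.05, against 13.6% of all tested genes, and a median log2 difference of 0.06. The most abundant were A2M, the broad protease trap alpha-2-macroglobulin (0.83, SE 0.44), SERPINA1 (0.08, SE 0.38) and SERPINB6 (0.05, SE 0.15). SPINK5, the skin inhibitor of KLK5 and KLK7, was named after its values were seen: it had 2.14, 1.48 and 0.941 FPKM in G3C2, against 5.28, 1.98 and 2.41 FPKM in WT (log2 difference -0.69, SE 0.18, limma adjusted p = 0.210).

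The protease-activated receptors, which are switched on when a protease cuts their outer end, were abundant. Of 4 genes 3 passed the filter, with 0 called by limma, 2 (66.7%) at an unadjusted p under 0.05, against 13.6% of all tested genes, and a median log2 difference of 0.49. F2R, the thrombin receptor, had 366.5, 232.9 and 129.2 FPKM in G3C2, against 132.3, 133.5 and 100.5 FPKM in WT (log2 difference 0.87, SE 0.32, limma adjusted p = 0.320). F2RL1, the trypsin receptor that KLK5 and KLK6 can cleave, differed by 0.45 (SE 0.16, limma adjusted p = 0.305), F2RL2 by 0.49 (SE 0.50), and F2RL3 was at 0 in all 6 libraries. F2R and F2RL1 were each higher in G3C2 in all 3 pairs, as were 17.8% of all tested genes.

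Reported substrates of kallikreins had 10 of 23 genes past the filter, 0 called by limma, 2 (20.0%) at an unadjusted p under 0.05, against 13.6% of all tested genes, and a median of -0.03. The most abundant were APP, the amyloid precursor protein (-0.22, SE 0.21), FN1, fibronectin (-0.12, SE 0.29), and TGFB1 (0.20, SE 0.20). The 2 at an unadjusted p under 0.05, named after their values were seen, were PLAUR, the urokinase receptor, and EPHB2, a receptor tyrosine kinase. PLAUR had 116.3, 35.8 and 54.1 FPKM in G3C2, against 65.8, 23.7 and 16.6 FPKM in WT (log2 difference 1.01, SE 0.23, limma adjusted p = 0.181), and EPHB2 differed by -0.67 (SE 0.18, limma adjusted p = 0.210).

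The list of other trypsin-like proteases also held F3, a cofactor and not a protease. Of its 22 genes 8 passed the filter, F3 among them, and 0 were called by limma. Of the 8, 2 (25.0%) had an unadjusted p under 0.05, against 13.6% of all tested genes, and the median was 0.06. The most abundant were the urokinase PLAU (0.05, SE 0.31), the plasminogen activator PLAT (0.43, SE 0.20) and the mitochondrial protease HTRA2 (0.03, SE 0.19). The 2 at an unadjusted p under 0.05, named after their values were seen, were PRSS12, the neuronal protease neurotrypsin (-0.95, SE 0.18, limma adjusted p = 0.137), and HTRA3 (0.46, SE 0.17, limma adjusted p = 0.316). F3, also named after its values were seen, is tissue factor, a cofactor of a coagulation protease, and differed by 1.34 (SE 0.60, limma adjusted p = 0.404), with 18.7, 7.95 and 42.2 FPKM in G3C2, against 13.7, 4.98 and 4.33 FPKM in WT.

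Nuclear receptors, through which steroids and retinoids act on several kallikrein genes, had 7 of 11 past the filter, 0 called by limma, 2 (28.6%) at an unadjusted p under 0.05, against 13.6% of all tested genes, and a median of 0.02. RARG differed by 0.74 (SE 0.22), THRA by 0.17 (SE 0.20) and NR3C1, the glucocorticoid receptor, by 0.02 (SE 0.14). VDR, the vitamin D receptor, was named after its values were seen: it had 4.71, 3.28 and 3.30 FPKM in G3C2, against 10.9, 5.46 and 6.38 FPKM in WT (log2 difference -0.81, SE 0.15, limma adjusted p = 0.135). Over these 5 lists limma called 0 genes, and so did limma-voom on the recovered reads of both tables, with a smallest adjusted p of 0.125.

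Marker lists of the cell types in which kallikreins are usually found were set beside these values. Of 10 epithelial markers 6 passed the filter. The summed level of all 10 was 277.3, 158.1 and 127.4 FPKM in G3C2, against 198.9, 86.9 and 99.6 FPKM in WT. The sum is carried by the keratins KRT8, KRT17 and KRT18, and the members did not move together: their median log2 differences were 0.41, 0.07 and -0.01 for replicates 1, b and c, and 1 of the 6 was higher in G3C2 in all 3 pairs. KRT8 differed by 0.51 (SE 0.17), KRT17 by 1.52 (SE 0.64), KRT14 by 0.64 (SE 0.80) and KRT18 by 0.23 (SE 0.22). EPCAM differed by -0.70 (SE 0.31) and CLDN4 by -0.06 (SE 0.21). EPCAM and the markers below the filter were named after their values were seen. EPCAM, an epithelial surface protein, had 7.08, 3.29 and 3.29 FPKM in G3C2, against 18.7, 6.94 and 3.05 FPKM in WT. CDH1, the epithelial cadherin, had 0.382, 0.0244 and 0.0287 FPKM in G3C2, against 1.01, 0.126 and 0.0446 FPKM in WT. KRT5 went the other way, with 0.364, 0.167 and 0.134 FPKM in G3C2, against 0.054, 0.039 and 0.046 FPKM in WT. ESRP1 was lower in G3C2 in replicates 1 and c and higher in b. KRT19 was above 0 in G3C2 replicate c alone (0.019 FPKM). Of 8 keratinocyte differentiation genes with values, 2 passed. The sum of the 8 was 13.0, 11.5 and 13.6 FPKM in G3C2, against 11.9, 11.7 and 9.42 FPKM in WT. KRT1, CDSN, DSG1 and SPRR1A were at 0 in all 6 libraries. The part of these genes in the KLK6 difference was not tested.

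The protein-coding genes whose pattern over the 6 libraries was most like that of KLK6 lay on other chromosomes. They were ranked by Pearson's r of log2(FPKM + 1) with the mean of each table subtracted. Candidates were the 203 other tested protein-coding genes with an absolute log2 difference of at least 1. The 5 protein-coding genes with the largest r were COL22A1 (0.998), COBL (0.997), CDA (0.997), BCHE (0.994) and SNX10 (0.990), as a description over 6 libraries that share their tables and genotypes. Choosing on an absolute difference of at least 1 and on likeness to KLK6 fixes their direction.

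Their levels were given by library as for KLK6. COBL, an actin nucleator, had 4.01, 0.799 and 0.890 FPKM in G3C2, against 10.4, 2.77 and 3.48 FPKM in WT. SNX10, an endosomal sorting protein needed for bone resorption by osteoclasts, had 4.51, 2.40 and 2.10 FPKM in G3C2, against 12.3, 5.38 and 5.89 FPKM in WT. COL22A1, a collagen chain of tissue junctions, CDA, the cytidine deaminase, and BCHE, butyrylcholinesterase, differed by -2.18 (SE 0.17), -2.48 (SE 0.17) and -1.87 (SE 0.15) on the log2(FPKM + 1) scale. The other kallikreins could not be candidates, since none passed the filter. The antisense gene AC011483.1 of the cluster passed it but was not ranked, since candidates were protein-coding. The ranking therefore does not bear on whether neighbours share the pattern.

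**Figure D4:**
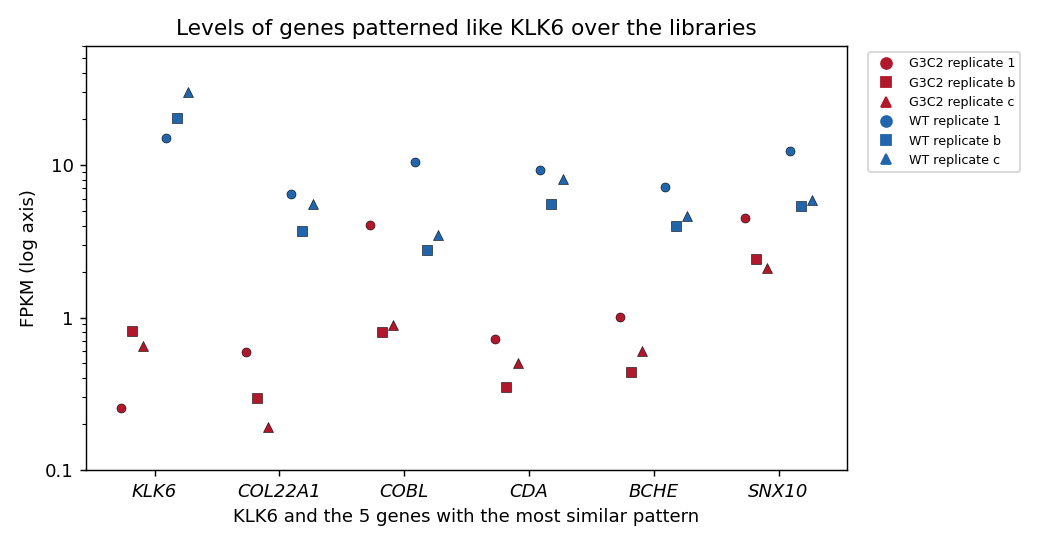
FPKM on a log axis of KLK6 and the 5 genes with the most similar pattern, per library; red points are G3C2 and blue points WT, and the shape gives the replicate label. Within each replicate label all 6 genes are lower in G3C2 than in WT, and for COBL the G3C2 value of the first table (4.01 FPKM) lies above the WT values of the second (2.77 and 3.48 FPKM), whose scale differs.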

How the data were processed

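Poly(A) RNA of 3 G3C2 and 3 WT libraries was measured. The authors deposited both tables as FPKM, as their file headers say. CASAVA, HISAT2 and GRCh38.p12 are named in the submitters' processing notes, without versions. Counter and strand setting are not given in the sources used here. Groups and labels 1, b and c came from the sample titles. Divisors and reads were recovered from low FPKM values with GENCODE 29 lengths, within a tolerance of 0.02 reads. With exon-union lengths, between 97.3% and 97.4% of second-table values were whole. The first table used mean transcript length, with which 85.3% and 85.4% of values under 200 reads were whole (59.6% and 61.1% of all). Intervals and the floor of 3 reads cover counting error only.

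Limma 3.58.1 in R 4.3.3 was fitted to log2(FPKM + 1) over 15001 genes (1 FPKM or more in 2 or more libraries), with genotype and table as terms and a mean-variance trend. P-values were Benjamini-Hochberg adjusted, with a threshold of 0.05. The fit was run on simulated data with noise smaller than that between replicates b and c, and with changes in well-expressed genes only. That setting was easier than these data, so no support is drawn from it. Members and lists were chosen with earlier results of these data known. Named were all cluster kallikreins, the nearest flanking protein-coding genes, the 2 largest flanking differences each way, the 3 most abundant genes of a list without calls, and 5 genes most like KLK6; others are marked as chosen after their values were seen. Same-labelled libraries deviated together (r = 0.93, 0.80 and 0.60), which meets the rule for pairing, but 2 separately scaled tables produce this too (r = -0.17 within the second table). The reported fit does not pair them; with the replicate block as an alternative, 0 genes were higher and 1 lower. Alternatives were other pseudocounts, filters, scalings, variance models, windows, a replicate block, libraries left out and limma-voom on recovered reads. Python 3.11.15, pandas 2.3.3, scipy 1.17.1 and matplotlib 3.10.9 were used.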

Additional observations from a re-analysis of the deposited data

How the results depend on the processing

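KLK6, chosen on this contrast, was lower in G3C2 under all 20 alternatives that gave it a value, between -3.60 and -3.95 on the log2 scale with libraries or replicate labels left out. Several alternatives could not move the value: other filters, the replicate block, no table term and no mean-variance trend all gave -3.81. Leaving out replicate 1 or either of its libraries repeated the second table alone (-3.88). The KLK6 difference was -5.06 with a pseudocount of 0.1, -5.10 with limma-voom on reads of the second table and -5.22 with limma-voom on reads of both tables, the last chosen after the data were seen. These scales compress low levels less. Flanking genes called numbered 0 in all 22 alternatives, and their median lay between -0.11 and 0.13. Where the window was 1 Mb, between 0 and 11 had an unadjusted limma p under 0.05. The 0 came with no table term, where 223 of all 15001 tested genes did. The 11 came with no filter, which also tested flanking genes with low values, and there 2990 of all 33895 genes did.

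The counts over all genes were less stable (3 higher and 4 lower as reported). With the replicate block, which pairs the libraries, 0 were higher and 1 lower (1782 at an unadjusted p under 0.05). Both counts were 0 with no filter (2990 unadjusted), no table term (223), the second table alone (1110) and limma-voom on that table (1165). A mean FPKM of at least 5 left 1 lower, equal medians gave 5 higher, and limma-voom on both tables gave 1 higher and 11 lower. Leave-one-out fits gave between 0 and 448 higher and between 0 and 457 lower, with both maxima where replicate c was left out. Depth limits the 7 other members, with at most 40 reads in a library. The cause of these shifts was not tested.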
